A study of Mus musculus with 24 samples.

Results

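The lung of C3H/HeOuJ mice (OuJ), which carry a sufficient Tlr4, was compared after 6 h of ozone and in air. The samples titled as OuJ in air (3) and OuJ after 6 h of ozone (3) were taken by their titles, which gave 6 of the 24 arrays of the series. Each array holds RNA of the left lobe from 1 male mouse, and the series has 8 groups of 3: OuJ and the related strain C3H/HeJ (HeJ), whose Tlr4 is dominant negative, each unexposed (air) or exposed to ozone for 6, 24 or 48 h. Ozone is an oxidant gas that reacts with the fluid and cells lining the airways, and the study asked how transcripts of the lung respond to it when Tlr4 is deficient. No other allele, agent or treatment is given for these groups, and the sources used here do not give the ages of the mice, the ozone concentration or the settings of the scanner software. The lobes were homogenized whole, so the RNA comes from every cell type in them, and in such samples fewer cells of a type and less RNA per cell cannot be told apart.

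Cells meet an oxidant on several known levels. Loss of reduced thiols releases the factor NRF2, which drives genes for glutathione synthesis and for detoxifying enzymes, while free zinc and other metals act through the factor MTF1 on metallothioneins, small cysteine-rich proteins that bind metals and scavenge radicals. Glucocorticoids act through their receptor on a broad set of genes in the lung, among them Fkbp5, Tsc22d3 and Per1. Tlr4, the receptor for bacterial lipopolysaccharide, signals through NF-kB to cytokines and chemokines.

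The tissue matched its label by its defining markers. Across the 6 arrays the signal of Sftpc, a surfactant protein of alveolar type 2 cells, was 27216.3 to 40838.8, that of Scgb1a1, the main secretory protein of club cells, was 24982.7 to 34956.2, and that of Ager, a receptor of alveolar type 1 cells, was 12834.5 to 19231. The arrays resembled each other closely: over all genes tested, which are not independent replicates, Pearson's r was 0.971 to 0.980 between air arrays, 0.971 to 0.976 between exposed arrays and 0.958 to 0.976 between an air and an exposed array. The median signal of an array was 225.5 ± 3 (SD, n = 3) in air and 217.9 ± 1.76 (SD, n = 3) after ozone, with an exact two-sided permutation p of 0.1, the smallest that 3 against 3 arrays can give, and 0.4 after Benjamini-Hochberg adjustment over the 4 array measures compared. The ratio of the 5' to the 3' control probe sets of Gapdh, a measure of RNA integrity, was 0.843 ± 0.0798 in air and 0.889 ± 0.0449 after ozone (SD, n = 3; exact permutation p = 0.5). With 3 arrays a group, precision is set by that small number.

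Of 8008 genes tested with limma, 11 passed at an adjusted p under 0.05, or 0.137%. The 7 that rose (0.0874% of all genes) were Npr3, Mt2, Gclc, Mt1, Errfi1, Dst and Hp, and the 4 that fell (0.05%) were Rgs2, Plac8, Gbp2b and Lmo2. In all 11 the 3 exposed arrays lay entirely above or entirely below the 3 air arrays, a pattern that 7.94% of all genes showed upward and 9.03% downward. At an unadjusted p under 0.05 the count was 838 genes, 10.5% of all. The split of the calls depended on the scaling: with arrays centred on their medians 38 genes passed, 34 upward and 4 downward, and 10 of the 11 were among them. Differences in the text are on the scale of log2(signal + 16), written with their standard error from the fit, and the median difference over all genes tested was -0.02.

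**Figure D1:**
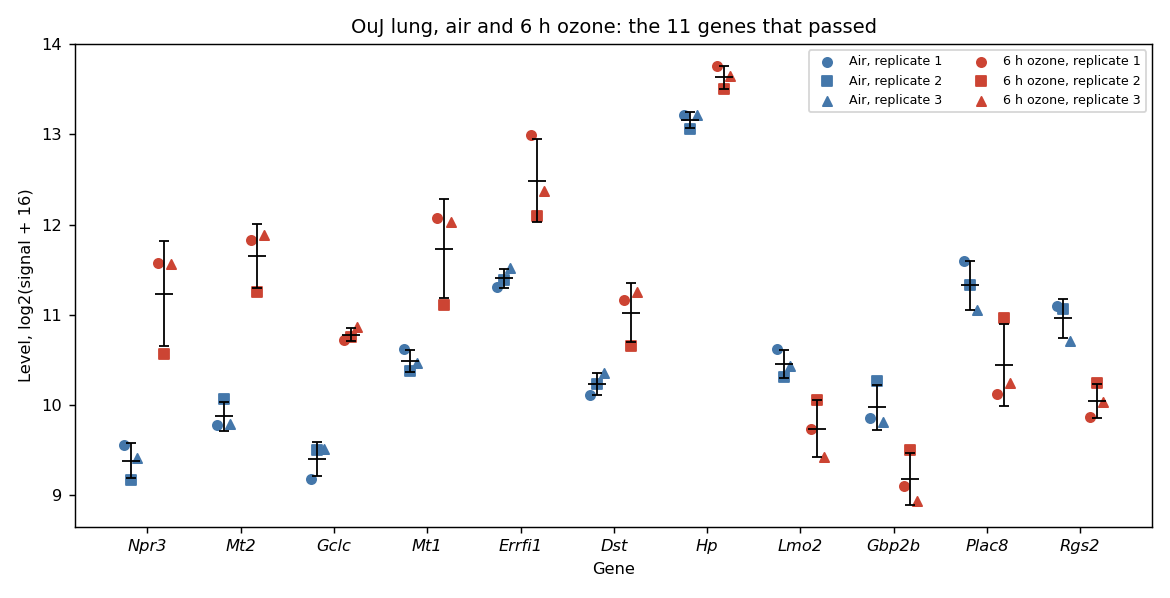
Level of each of the 11 genes that passed, as log2(signal + 16) on the vertical axis, in the 3 OuJ air arrays (blue) and the 3 OuJ arrays after 6 h of ozone (red). Marker shapes give the replicate number and black bars the mean ± SD of the 3 arrays. The air and exposed arrays do not overlap for any of the 11, and exposed replicate 2 (squares) lies nearest to the air arrays in 10 of them.

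Both metallothioneins above the detection filter rose. The promoters of Mt2 and Mt1 are shown because these neighbouring genes rose together and because the factors that act on them are known by short DNA motifs. Each sequence is the 250 bases before the annotated start in RefSeq, build GRCm38.p6, plus strand, for Mt2 at chr8:94172368-94172617 and for Mt1 at chr8:94178839-94179088. Capitals mark matches on either strand to the metal response element cores TGCACNC and TGCGCNC, the antioxidant response element core TGACNNNGC and the palindromic glucocorticoid response element, where N is any base.
Mt2: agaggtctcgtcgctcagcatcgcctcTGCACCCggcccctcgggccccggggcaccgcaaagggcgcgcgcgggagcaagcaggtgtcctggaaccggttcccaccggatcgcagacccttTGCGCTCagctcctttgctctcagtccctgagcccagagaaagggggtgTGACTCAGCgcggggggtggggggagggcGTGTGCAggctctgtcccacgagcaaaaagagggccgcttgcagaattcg
Mt1: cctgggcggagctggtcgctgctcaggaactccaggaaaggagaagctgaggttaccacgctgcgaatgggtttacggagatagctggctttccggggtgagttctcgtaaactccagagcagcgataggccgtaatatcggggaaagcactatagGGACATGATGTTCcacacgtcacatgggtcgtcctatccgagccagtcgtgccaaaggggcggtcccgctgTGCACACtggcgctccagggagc

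The Mt2 window holds 3 metal response element cores, whose first bases lie at -223, -128 and -50 from the start, and 1 antioxidant response element core at -79. The Mt1 window holds 1 metal response element core at -23 and 1 glucocorticoid response element at -94. Among 32841 mouse promoters of the same length, 21.4% held at least 1 of the metal cores, 10.2% the antioxidant core and 0.387% the glucocorticoid element. The table held promoters for 8 of the 11 genes that passed, all but Gclc, Hp and Lmo2. Rgs2 had overlapping matches to TGCGCNC at -209 and -208, Dst had a match to TGCACNC at -45 in 1 of its promoters, Plac8 had a match to TGACNNNGC at -231 in 1 of its promoters, and Npr3, Gbp2b and Errfi1 had no match to these motifs. The E-box CACGTG, which 6.02% of all promoters hold, had no match in the 8. The matches describe letters in these windows and say nothing of binding. Only the 250 bases before each annotated start were searched, so elements elsewhere in these promoters were not counted, and other start sites were not examined.

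The signal of Mt2 was 863.8, 1054 and 868.1 in the 3 air arrays and 3629.7, 2419.4 and 3777.7 in the 3 exposed arrays. Every exposed array was above every air array, and replicate 2 was the lowest of the exposed. Mt2 rose by 1.78 ± 0.21 (limma, adjusted p = 9.07e-05). The signal of Mt1 was 1563.1, 1318.4 and 1396.6 in air and 4286.3, 2191.4 and 4156.9 after ozone, again with replicate 2 the lowest exposed array, and Mt1 rose by 1.25 ± 0.19 (adjusted p = 0.00289). Of 17 metallothioneins and metal transporters tested these were the 2 that passed, and the median of the list was 0.00. Fth1, the heavy chain of the iron store ferritin, differed by 0.27 ± 0.11 (adjusted p = 0.34), and Slc40a1, the iron exporter ferroportin, by -0.26 ± 0.16 (adjusted p = 0.602). Mt3 and Mt4, metallothioneins of brain and squamous epithelium, stayed below the filter, with signals of 9.1 to 40.7 and 11.6 to 32.3 over the 6 arrays.

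Among genes of glutathione, Gclc rose. It encodes the catalytic subunit of glutamate-cysteine ligase, the rate-limiting enzyme of glutathione synthesis. Its signal was 566.7, 709.6 and 717.4 in air and 1677.3, 1717.8 and 1843.6 after ozone, the exposed group with the smallest SD on the log2 scale among the 11 genes. The difference was 1.38 ± 0.22 (limma, adjusted p = 0.00289), and its second probe set on the array gave 0.88. Of 20 genes of glutathione synthesis and use, 1 passed, 5 had all exposed arrays above air and 2 all below, and the median was 0.17. Over all genes these shares were 7.94% and 9.03%, so the 2 of 20 below are near the background. Gsta4, a transferase for lipid peroxidation products, was above air in all 3 exposed arrays with a difference of 0.44 ± 0.17 (adjusted p = 0.336), and Gpx3, the secreted glutathione peroxidase, differed by 0.29 ± 0.10 (adjusted p = 0.247).

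None of 25 NRF2 targets outside glutathione passed, 6 lay above air in all exposed arrays and 1 below, against 7.94% and 9.03% of all genes, and their median was 0.11. Txnrd1, thioredoxin reductase, had signals of 1145.3, 1316.6 and 1182.5 in air and 1990.1, 1499.9 and 1616.2 after ozone, without overlap, and a difference of 0.47 ± 0.11 (limma, adjusted p = 0.0608). Osgin1, an oxidative stress growth inhibitor, differed by 0.78 ± 0.22 (adjusted p = 0.121). Hmox1, heme oxygenase 1, differed by 0.15 ± 0.36, Nqo1, a quinone reductase, by -0.20 ± 0.19, and Nfe2l2, the gene of NRF2 itself, by 0.13 ± 0.13, with adjusted p-values of 0.928, 0.775 and 0.787.

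The largest rise of the 11 was that of Npr3, the natriuretic peptide clearance receptor, which removes natriuretic peptides from the tissue. Its signal was 740.1, 561.8 and 667.9 in air and 3045.9, 1495 and 3013.4 after ozone. Every exposed array was above every air array, with replicate 2 the lowest of the exposed. The mean signal was 3.84 times that in air, the difference 1.85 ± 0.22 (limma, adjusted p = 9.07e-05), and its 3 kept probe sets gave 1.01 to 1.85. Rgs2, a regulator of G protein signalling that dampens vasoconstrictor receptors, went the other way, from 2184, 2135.1 and 1659.3 in air to 917.2, 1195.2 and 1032.2 after ozone, and fell by 0.91 ± 0.14 (adjusted p = 0.00289), with its second probe set at -0.84. Of 16 natriuretic and vasoactive genes these were the 2 that passed, and the median was 0.19. Ramp2, a partner of the adrenomedullin receptor, differed by 0.32 ± 0.11 (adjusted p = 0.255) and Nos3, the endothelial nitric oxide synthase, by 0.34 ± 0.16 (adjusted p = 0.462). Nppc, the C-type natriuretic peptide, stayed below the filter at 13.5 to 80.6.

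Genes known to respond to glucocorticoids held the highest median of the 36 lists, which were chosen with earlier results of these data known. Of 36 genes written in that list 31 were tested, 29 of them had a difference above 0, and in 17 all exposed arrays lay above all air arrays, against 7.94% of all genes. The median difference was 0.72, against -0.02 over all genes. Only 1 of the 31 passed upward, Errfi1, and 1 downward, Rgs2, which glucocorticoids are known to raise. Errfi1, an inhibitor of the EGF receptor, had signals of 2524.2, 2661 and 2915.3 in air and 8140.9, 4369.2 and 5298.7 after ozone. It rose by 1.08 ± 0.20 (limma, adjusted p = 0.0197), and its second probe set gave 1.15. Of the 14 genes of the EGF receptor, its ligands and its feedback, Errfi1 was the 1 that passed, and the median of those 14 was -0.06.

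**Figure D2:**
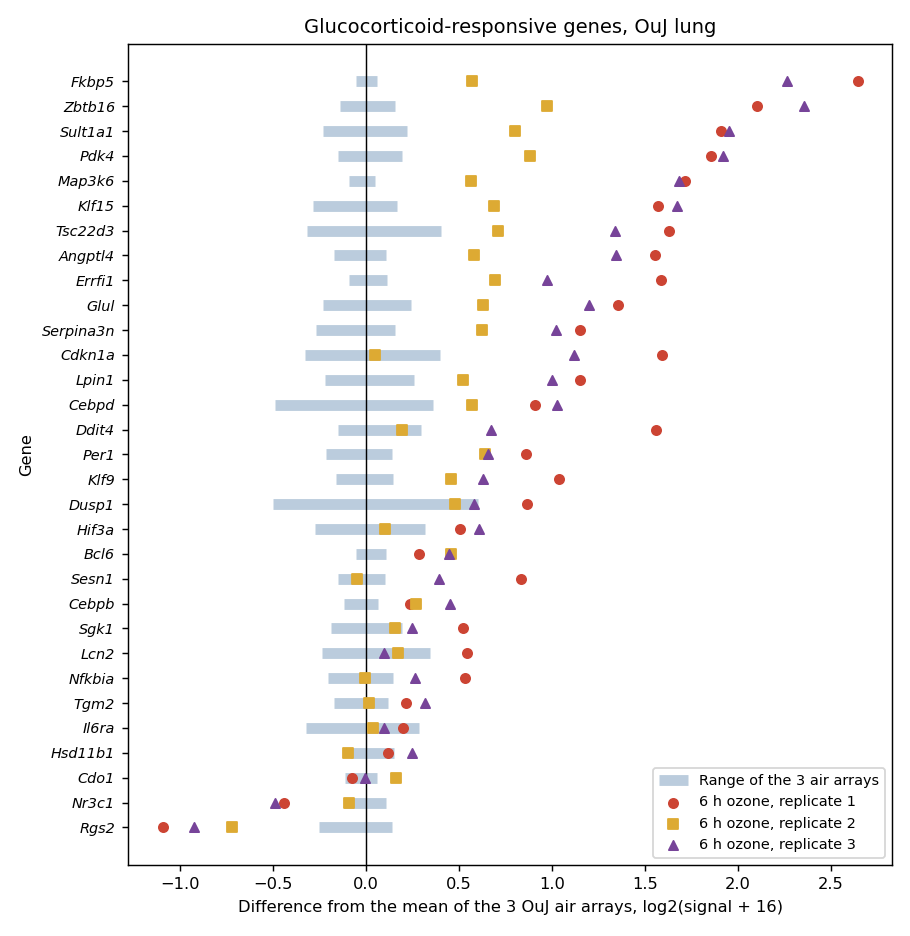
Differences of the 31 tested glucocorticoid-responsive genes from the mean of the 3 OuJ air arrays, on the log2(signal + 16) scale of the horizontal axis, in each OuJ array exposed for 6 h. Gray-blue bars give the range of the 3 air arrays, and points show exposed replicates 1 (circles), 2 (squares) and 3 (triangles). Replicate 2 lies to the left of the other exposed arrays in most of the upper rows, and Rgs2 at the bottom lies below its air range in all 3.

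Several members of the list had large differences whose spread kept them above the threshold. Fkbp5, a chaperone that feeds back on the glucocorticoid receptor, had signals of 439.7, 455.8 and 475.7 in air, a narrow range, and 2942.2, 686.9 and 2254.2 after ozone, where replicate 2 was far below the others. The difference was 1.83 ± 0.39 (limma, adjusted p = 0.0533). Pdk4, a kinase that turns off pyruvate dehydrogenase, went from 100.7, 92.6 and 121.8 to 419.6, 205.7 and 439.6, a difference of 1.55 ± 0.35 (adjusted p = 0.0549). Tsc22d3, the glucocorticoid-induced leucine zipper, had signals of 1849, 2176.4 and 3060.8 in air and 7173.6, 3788.8 and 5870.3 after ozone, with a difference of 1.23 ± 0.28 (adjusted p = 0.0549). Its other kept probe sets gave 0.98 and 0.08, the latter with overlap. Replicate 2 was the lowest exposed array for each of these 3 genes. Angptl4, an inhibitor of lipoprotein lipase, differed by 1.16 ± 0.27 (adjusted p = 0.0564), Glul, glutamine synthetase, by 1.06 ± 0.24 and Serpina3n, a secreted protease inhibitor, by 0.93 ± 0.21 (both adjusted p = 0.0549). The receptor gene itself, Nr3c1, was at 2186.6, 2394.1 and 2562.3 in air and 1746.6, 2224.7 and 1685.8 after ozone, with overlap, and differed by -0.34 ± 0.13 (adjusted p = 0.318). The list includes genes with other known inducers, such as Cdkn1a, the cell cycle inhibitor p21, at 0.92 ± 0.36 (adjusted p = 0.323).

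Clock genes gave no call. Per1, a repressor of the circadian clock that glucocorticoids also raise, was at 1048.7, 1286.9 and 1347.6 in air and 2233.3, 1910.8 and 1933.5 after ozone, without overlap, and differed by 0.72 ± 0.18 (limma, adjusted p = 0.0753). None of 17 clock and clock output genes passed, and their median was 0.04. The sources used here do not give the hour at which each lung was taken, so a difference in time of day between the groups was not tested. Of 15 lipid and fasting-type genes, among them Pdk4, Angptl4 and Lpl, none passed and 4 lay above air in all exposed arrays, against 7.94% of all genes. Lpl, lipoprotein lipase, differed by 1.11 ± 0.25 (adjusted p = 0.0549), and its second probe set gave 0.45.

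The array of exposed replicate 2 had the smallest change in most of the genes with the smallest p. Among the 11 genes that passed, its change from the mean of air was the smallest of the 3 exposed arrays in 10. Among the 20 next genes by p with no overlap it was the smallest in 17. None of the 11 overlapped and the 20 were picked for no overlap. An exposed array of the other direction could therefore not appear among these genes. Averaged over the 11 genes, with falls counted as positive, the change was 1.28, 0.72 and 1.25 in replicates 1, 2 and 3, and over the next 20 it was 1.24, 0.60 and 1.11. Its Gapdh 5' to 3' ratio of 0.931 and median signal of 219.15 were within the ranges of the other 5 OuJ arrays in air and at 6 h, 0.781 to 0.933 and 215.9 to 227.7. Its actin 5' to 3' ratio of 0.911 and its 10.3% of probe sets under a signal of 16 were above those of the other 5, 0.759 to 0.89 and 9.03% to 10%, and their part in its smaller changes was not tested. No label sets this mouse apart, and whether exposure, biology or handling differed for it was not tested. Without it 128 genes passed, 1.6% of all, with 75 higher and 53 lower, and all 11 were among them. Leaving out any of the other 5 OuJ arrays in air or at 6 h gave 3 to 16 genes.

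Counts in several lists were larger without this array. Without replicate 2, 13 of the 31 glucocorticoid-responsive genes passed upward against 0.937% of all genes, and Rgs2 passed downward. Among the 13 were Fkbp5 (2.45 ± 0.33, limma adjusted p = 0.000278), Angptl4 (1.45 ± 0.27, adjusted p = 0.00782), Pdk4 (1.89 ± 0.36, adjusted p = 0.00835), Tsc22d3 (1.48 ± 0.29, adjusted p = 0.00907), Glul and Serpina3n. These values rest on 2 exposed mice that were left after dropping the one with the smallest change, so they are given as the reach of 1 array and not as a better estimate. The median of the list was 0.91, 0.46 and 0.66 in replicates 1, 2 and 3, above the air arrays, which lay between -0.11 and 0.06, in each.

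Outside these lists Dst and Hp rose. Dst encodes dystonin, a linker of the cytoskeleton to junctions. Its signal was 1087.8, 1186.8 and 1294.7 in air and 2278.5, 1595.2 and 2427.5 after ozone, and it rose by 0.79 ± 0.13 (limma, adjusted p = 0.00354), with a second probe set at 0.59. Dst was the 1 of 22 cytoskeletal and junction genes that passed, and their median was 0.03. In that list Ocln, the tight junction protein occludin, lay below air in all exposed arrays, at 1712.7, 1555.2 and 1674.3 in air and 1100, 906.2 and 1147 after ozone, a difference of -0.65 ± 0.21 (adjusted p = 0.192).

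Hp, haptoglobin, an acute phase protein that binds free hemoglobin, was already abundant in air at 9485.1, 8511.9 and 9489.2 and reached 13801.1, 11589.4 and 12768.7 after ozone. It rose by 0.47 ± 0.08 (limma, adjusted p = 0.00632), the smallest change of the 11. Of 15 acute phase and secreted defence genes it was the 1 that passed, 14 had a difference above 0, 6 lay above air in all exposed arrays against 7.94% of all genes, and the median was 0.31. Itih4, an inter-alpha-trypsin inhibitor chain, differed by 0.47 ± 0.13 (adjusted p = 0.125) and Lrg1, a leucine-rich glycoprotein of the acute phase, by 0.73 ± 0.28 (adjusted p = 0.311). The list median was even across the exposed arrays, at 0.29, 0.34 and 0.36, with air between -0.09 and 0.09.

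**Figure D3:**
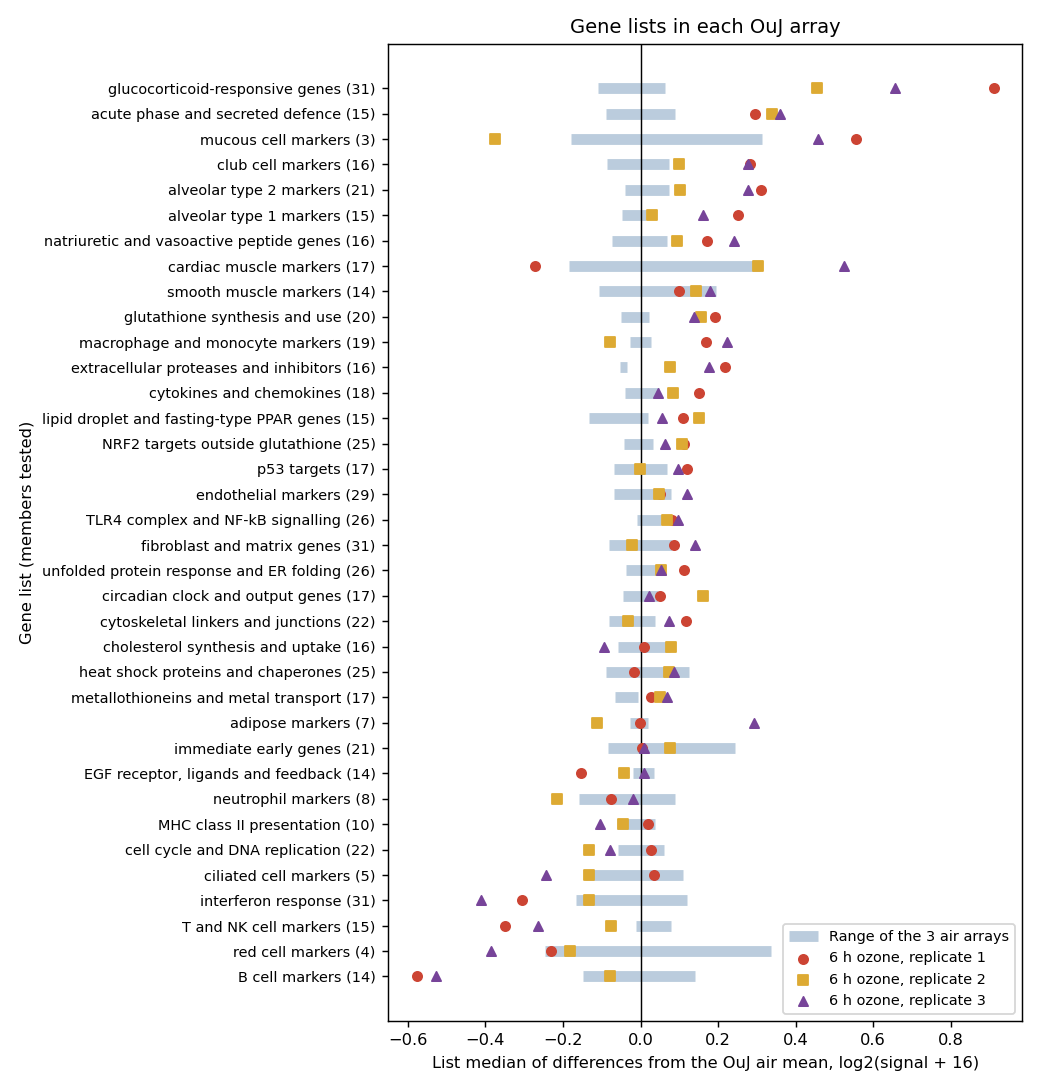
Median difference of each of the 36 gene lists from the mean of the 3 OuJ air arrays, on the log2(signal + 16) scale of the horizontal axis, for exposed replicates 1 (circles), 2 (squares) and 3 (triangles). Gray-blue bars give the range of the 3 air arrays and the number after each name the members tested. By the list's median difference between the groups, glucocorticoid-responsive genes (0.72) and acute phase genes (0.31) lie highest and B cell markers (-0.39) lowest, while single arrays of other lists, such as the cardiac list (0.52), lie above the acute phase points (0.29 to 0.36).

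No cytokine or chemokine passed at 6 h. Of 38 genes written in that list 18 were tested. Of these 18, 5 lay above air in all exposed arrays and 2 below, with a median of 0.12. Over all genes the shares were 7.94% and 9.03%, and the 2 of 18 below are near the latter. Cxcl1, a neutrophil chemokine, had low signals of 69.8, 69.6 and 83.3 in air and 144, 183.7 and 291.3 after ozone, without overlap, and differed by 1.25 ± 0.43 (limma, adjusted p = 0.224). Ccl20, a chemokine for dendritic cells and lymphocytes, was near the bottom of the scale in air at 18.2, 18.4 and 14.6 and reached 32, 89.9 and 241.4 after ozone, a wide spread, with a difference of 1.73 ± 0.64 (adjusted p = 0.284). Csf1, the macrophage growth factor, lay below air in all exposed arrays at -0.49 ± 0.16 (adjusted p = 0.181). Il6, Cxcl2, Ccl2 and Tnf stayed below the filter: Il6 was at 34 to 55.7 in air and 34.8 to 84.6 after ozone, and Cxcl2, another neutrophil chemokine, at 37.9 to 67.3 and 83.2 to 122.6. Ccl2, a monocyte chemokine, was at 38 to 47.9 and 78.8 to 100.2, and Tnf at 18.5 to 20.8 and 14.3 to 20.5. The low signals of Cxcl2 and Ccl2 thus did not overlap between air and ozone, while those of Il6 and Tnf did. Ccl22 (34.2 to 89.6 in air, 92.5 to 105.7 after ozone) and Lif (66.7 to 120.1, 127.2 to 173.3) lay higher without overlap. Il1a (154.7 to 208.9 in air, 114.7 to 134.5 after ozone) lay lower without overlap. So did Csf3 (25.4 to 82.2, 10.1 to 13.3) and Cxcl9 (19.2 to 41.7, 11.3 to 17.1). With no filter, 6.62% of 12393 genes lay above air in all exposed arrays and 8.45% below. None of these genes below the filter was tested.

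Tlr4, the receptor that distinguishes the strains by allele, did not pass. It was at 207.8, 254 and 199.9 in air and 220.5, 160.6 and 216.9 after ozone, with overlap and a difference of -0.14 ± 0.17 (limma, adjusted p = 0.825). None of 26 genes of the TLR4 complex and NF-kB signalling passed, 6 lay above air in all exposed arrays and 1 below, against 7.94% and 9.03% of all genes, and the median was 0.06. Cd14, the co-receptor for lipopolysaccharide, was at 913.8, 940.2 and 883.7 in air and 1116.3, 1445.2 and 1339.5 after ozone, and Tlr2, the receptor for bacterial lipoproteins, at 450.4, 467.6 and 419.9 and then 633.1, 634.2 and 574.4. Both lay above air in all exposed arrays, by 0.50 ± 0.14 and 0.45 ± 0.12 (both adjusted p = 0.111). Bcl3, a nuclear partner of NF-kB, differed by 1.19 ± 0.30 (adjusted p = 0.085) and Birc3, an inhibitor of apoptosis, by 0.47 ± 0.17 (adjusted p = 0.247).

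Of the genes that fell, Gbp2b, an interferon-inducible guanylate-binding protein, was at 908.5, 1213.3 and 881 in air and 535.8, 709.1 and 475.3 after ozone, and fell by 0.79 ± 0.15 (limma, adjusted p = 0.0194). It was the 1 of 31 interferon-responsive genes that passed, while 4 had a difference above 0, 8 lay below air in all exposed arrays against 9.03% of all genes, and the median was -0.26. Tap1, a peptide transporter for MHC class I, was at 876.9, 736.3 and 562.2 in air and 419.3, 462.1 and 465.1 after ozone (-0.65 ± 0.15, adjusted p = 0.0549). The interferon-inducible GTPases Ifi47 and Irgm1 differed by -0.72 ± 0.17 (adjusted p = 0.0549) and -0.83 ± 0.22 (adjusted p = 0.093), and Irf8, a transcription factor of myeloid and B cells, by -0.46 ± 0.13 (adjusted p = 0.117). A second kept probe set of Irf8 gave -0.14, with overlap. Members of this list are also expressed by lymphocytes and macrophages. None of 10 genes of MHC class II presentation passed, with a median of -0.08. Ciita, their master activator, differed by -0.74 ± 0.23 (adjusted p = 0.162).

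Plac8, a cysteine-rich protein of leukocytes, fell from 3084.7, 2555.3 and 2112.2 in air to 1099.9, 1988.4 and 1198.6 after ozone, by 0.88 ± 0.17 (limma, adjusted p = 0.0338), with exposed replicate 2 close to the lowest air array. It was the 1 of 19 macrophage and monocyte markers that passed. Ccr2, a chemokine receptor of monocytes, was also below air in all exposed arrays, at -0.89 ± 0.38 (adjusted p = 0.382), whereas Adgre1, the macrophage antigen F4/80, was above air in all of them at 0.35 ± 0.12 (adjusted p = 0.224). The summed signal of the 19 markers was 71680.9 to 81330.8 in air and 78168.9 to 85385.9 after ozone, and their median was 0.16. Lmo2, a transcriptional cofactor of blood and endothelial cells, was at 1564.1, 1254 and 1371 in air and 834.1, 1050.4 and 671.4 after ozone and fell by 0.72 ± 0.15 (adjusted p = 0.0424). Among 29 endothelial markers it was the 1 that passed, their median was 0.08, and their summed signal was 93858.8 to 105747 in air and 105250 to 110563 after ozone. Kdr, the VEGF receptor, was below air in all exposed arrays at -0.54 ± 0.15 (adjusted p = 0.118), and Cldn5, the endothelial tight junction claudin, above at 0.39 ± 0.13 (adjusted p = 0.188).

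No marker of lymphocytes passed. All 14 tested B cell markers had a difference below 0, 4 lay below air in all exposed arrays against 9.03% of all genes, and their median was -0.39. The 14 summed to signals of 6423.4 to 8455 in air and 5002.9 to 7083.1 after ozone, so the sums overlapped. Cd79a, a subunit of the B cell receptor, was at 834.3, 847 and 729 in air and 427.5, 718 and 396.1 after ozone, a difference of -0.68 ± 0.23 (limma, adjusted p = 0.224). Ms4a1, the B cell antigen CD20, differed by -0.85 ± 0.28 (adjusted p = 0.192). By array the median of the list was -0.58, -0.08 and -0.53 in exposed replicates 1, 2 and 3, with air between -0.15 and 0.14, so replicate 2 lay inside the range of air. Without replicate 2, 4 of the 14 passed downward (Cd22, Ms4a1, Fcer2a and Cd79a), and so did 4 of the 31 interferon-responsive genes (Gbp2b, Ifi47, Irgm1 and Tap1), against 0.662% of all genes. Among 15 T and NK cell markers 0 passed, 3 lay below air in all exposed arrays and 1 above, against 9.03% and 7.94% of all genes, and the median was -0.27. Their sums overlapped, at 6529.9 to 7499.1 in air and 5013.4 to 6750.8 after ozone. The part of lymphocyte markers in the falls of Plac8, Gbp2b and Lmo2 was not tested.

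Markers of neutrophils gave no call at 6 h. Of 8 tested, 0 passed, 0 lay above air in all exposed arrays, against 7.94% of all genes, and their median was -0.07. S100a9, a calcium-binding protein abundant in neutrophils, was at 1361.2, 909.4 and 1037.7 in air and 946.9, 453.5 and 596.7 after ozone, with overlap (-0.76 ± 0.30, limma adjusted p = 0.324), and its partner S100a8 differed by -0.50 ± 0.32 (adjusted p = 0.619). The summed signal of the 8 was 4033.8 to 4999.7 in air and 3265.4 to 4195.5 after ozone. Mpo, Elane and Camp, genes of neutrophil granules, were below the filter, with signals of 117.7 to 210.1, 36.2 to 44.5 and 6.7 to 24.2 over the 6 arrays. Cxcr2, a chemokine receptor of neutrophils, was below the filter too. Its low signals of 17.4 to 40.1 in air and 47.6 to 53.9 after ozone did not overlap and were not tested.

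Epithelial markers gave 1 call. Medians were 0.19 for 15 alveolar type 1, 0.20 for 21 alveolar type 2 and 0.23 for 16 club cell markers, and of these Hp, which is in the club cell list too, was the 1 that passed. In these lists 3, 6 and 5 members lay above air in all exposed arrays, against 7.94% of all genes. Below air in all of them lay 1, 0 and 0, against 9.03%. Sftpd, surfactant protein D, was at 18102.2, 14655 and 16241 in air and 22891, 18401.4 and 21808.7 after ozone, without overlap (0.36 ± 0.09, limma adjusted p = 0.0691). Hopx, a type 1 cell marker, differed by 0.36 ± 0.12 (adjusted p = 0.181) and Aldh1a1, a club cell dehydrogenase, by 0.41 ± 0.13 (adjusted p = 0.169). The summed signals were 178143 to 212182 in air and 208265 to 240796 after ozone for type 2 markers, and 142274 to 172189 and 170001 to 194442 for club cell markers, so both sums overlapped between air and ozone. Within each group of arrays the sum was lowest in replicate 2, in air as after ozone. Ciliated and mucous lists had 5 and 3 members tested, none passed, and their medians were -0.11 and 0.26.

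Mesenchymal, muscle and blood markers gave no call. Of 31 fibroblast and matrix genes 0 passed, 6 lay above and 2 below air in all exposed arrays, against 7.94% and 9.03% of all genes, and the median was 0.06. The 2 below were homeobox factors of the mesenchyme: Meox2 went from 387, 518.9 and 392.1 to 165.5, 169.7 and 177.5, a narrow exposed group (-1.25 ± 0.27, limma adjusted p = 0.0549), and Meis1 differed by -0.86 ± 0.21 (adjusted p = 0.0661). Cardiac muscle markers, which in mouse lung come from the walls of pulmonary veins, varied by array more than by group, with list medians of -0.27, 0.30 and 0.52 in the exposed arrays and -0.18 to 0.31 in air. Medians were 0.17 for 14 smooth muscle, -0.27 for 4 red cell and -0.03 for 7 adipose markers.

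Stress programs other than those above gave no gene that passed at 6 h. For 25 heat shock proteins and chaperones the median was 0.02. The inducible Hsp70 genes Hspa1a and Hspa1b, near-identical copies whose signals may not be separable, were at 109.2, 99.5 and 712.8 and at 276.5, 227.1 and 1820.7 in air, with replicate 3 far above the other air arrays, and at 113.7 to 147.2 and 178.9 to 451.6 after ozone. Their differences of -0.56 ± 0.63 and -0.60 ± 0.62 (limma, adjusted p = 0.816 and 0.797) turned to 0.31 and 0.33 without air replicate 3. Fos, an immediate early factor, had a high value in the same air array, at 1375.5, 1816.3 and 3687.6 in air and 1332.3, 1424.4 and 982.5 after ozone (-0.76 ± 0.27, adjusted p = 0.267). The median was -0.03 for 21 immediate early genes, 0.05 for 26 genes of the unfolded protein response and 0.08 for 17 p53 targets. It was -0.09 for 22 cell cycle genes, 0.02 for 16 genes of cholesterol synthesis and 0.14 for 16 extracellular proteases and inhibitors. Of these 16 proteases and inhibitors, 14 had a difference above 0. In 7 of them all exposed arrays lay above air, against 7.94% of all genes. Fas, a death receptor, and Trp53inp1, both p53 targets, lay above air in all exposed arrays at 1.00 ± 0.26 (adjusted p = 0.085) and 1.02 ± 0.28 (adjusted p = 0.112). A second kept probe set of Trp53inp1 gave only 0.22, with overlap. Hspa5, the chaperone BiP, differed by 0.25 ± 0.13 (adjusted p = 0.529).

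The 20 genes next in order of p whose arrays did not overlap had adjusted p-values of 0.0516 to 0.0549, just beyond the threshold. Besides those already given, the higher ones included Bcl2l1, which encodes the survival protein Bcl-xL (1.29), Gadd45g, a stress-responsive growth inhibitor (1.18), Lmcd1, a LIM domain protein (1.12), Mxd4, an antagonist of Myc (0.78), Lipg, endothelial lipase (0.68), Tbc1d8 (0.66) and Prkg2, a cGMP-dependent kinase (0.57). Other kept probe sets of Mxd4 gave 0.62 and 0.04, the latter with overlap, and those of Bcl2l1 gave 0.72 and 0.51. The lower ones included Coq4, a ubiquinone synthesis protein (-1.36), Cxcr4, a chemokine receptor (-0.72), Enoph1, an enzyme of methionine salvage (-0.67), Ptcd2, a mitochondrial RNA processing protein (-0.55) and Glis2, a zinc finger factor (-0.51). The members inside the threshold ended with Plac8 at 0.0338 and Lmo2 at 0.0424.

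HeJ mice after 6 h of ozone, compared with their own air arrays, served as the contrast by strain. The Tlr4 allele and any other difference between the strains cannot be told apart in it. In HeJ 3 genes passed (0.0375%), and none of the 11 OuJ genes was among them. They were Lum, Wdr36 and Wnt3a, named because they are few. All 11 had a smaller change in HeJ, and 9 had the same sign, with Npr3 and Dst the exceptions; since the 11 were chosen for their change in OuJ, a smaller value elsewhere is not read as a result. The test of the difference between the changes passed for 1 of 8008 genes (0.0125%), Npr3, at 2.05 ± 0.31 (limma, adjusted p = 0.00764). In HeJ its signal was 1704.8, 1203.4 and 1327.3 in air and 914.8, 1125.9 and 1750.9 after ozone, with overlap. The HeJ air arrays of Npr3 were thus above all OuJ air arrays: in air OuJ stood 1.08 lower than HeJ (adjusted p = 0.0169), a comparison added after these values were seen. The difference between the changes lost the threshold without HeJ air replicate 1 (adjusted p = 0.0512) and in a fit on the 12 air and 6 h arrays alone (adjusted p = 0.534), and its size ranged from 1.64 to 2.38 over 23 alternatives.

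The same order of the air groups held for the other genes that rose. All 7 had a lower level in OuJ air than in HeJ air, and 2 of the 7, Npr3 and Hp, passed in that comparison, in which 0.774% of all genes passed. Hp was at a mean of 9162 ± 563 in OuJ air, 12720 ± 1110 in OuJ after 6 h and 12920 ± 826 in HeJ air (SD, n = 3), so that exposed OuJ and unexposed HeJ lay side by side. Mt1 was at 1426 ± 125, 3545 ± 1170 and 2246 ± 233 in these 3 groups and at 2550 ± 279 in HeJ after 6 h. Mt2 was at 928.6 ± 109, 3276 ± 745 and 1609 ± 250, and at 2789 ± 1090 in HeJ after 6 h. Dst was at 1190 ± 103, 2100 ± 444 and 1579 ± 71.2, and at 1495 ± 145 in HeJ after 6 h. None of the 4 genes that fell was lower in OuJ air than in HeJ air. The OuJ air arrays enter both the change at 6 h and the comparison in air, so a low value in them moves both. The Gapdh 5' to 3' ratio was 0.781 to 0.933 in the 6 OuJ arrays and 0.511 to 0.714 in the 6 HeJ arrays, and its part in the strain difference was not tested.

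**Figure D4:**
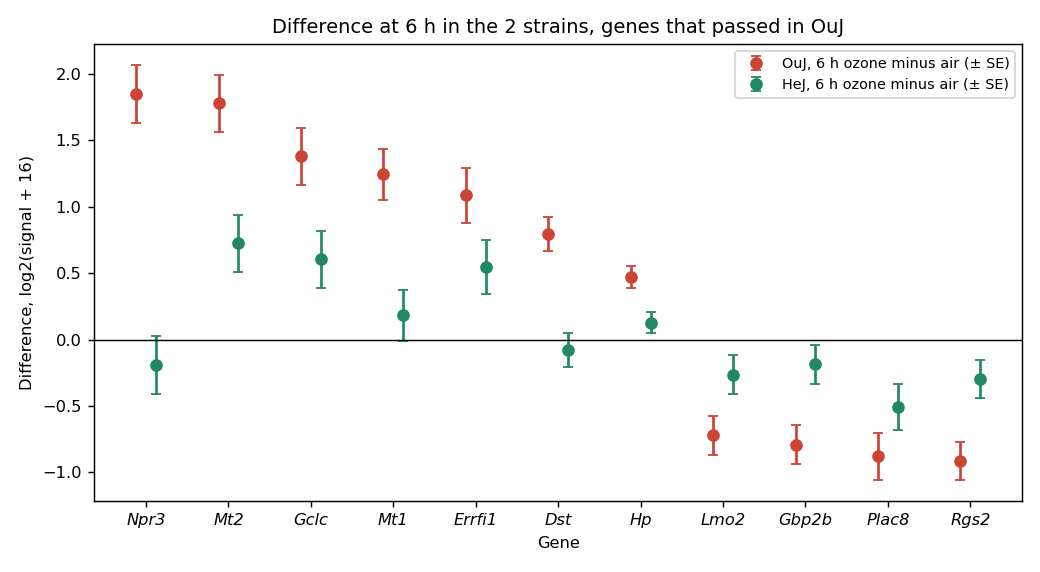
Difference between 6 h of ozone and air, ± SE, on the log2(signal + 16) scale of the vertical axis, in OuJ (red) and HeJ (green) for the 11 genes that passed in OuJ. Npr3 differs most, at 1.85 in OuJ and -0.20 in HeJ, and it is the 1 gene for which the test of the difference passed.

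The medians of the lists were not tested between the strains. Glucocorticoid-responsive genes had a median of 0.72 in OuJ and 0.48 in HeJ, with 17 and 7 of 31 above air in all exposed arrays, against 7.94% and 5.38% of all genes. By array the median in HeJ was 0.00, 0.47 and 1.15. B cell markers had medians of -0.39 and -0.37, interferon-responsive genes -0.26 and -0.15, and acute phase genes 0.31 and 0.21. Cd14 differed by 0.04 and Tlr2 by -0.06 in HeJ, and the test of the strain difference passed for neither.

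The later OuJ groups share the air arrays with the 6 h comparison. They belong to the same 24 arrays, but their sample codes are of another set than those of the air and 6 h arrays. Time and set of codes cannot be told apart. At 24 h 526 genes passed (6.57%) and at 48 h 633 (7.9%). Of the 11 genes, 10 passed in the same direction at 24 h and 9 at 48 h. The 11 were chosen for their difference from these same air arrays, which favours agreement at the later times in advance. These counts are therefore not read as a result about persistence. Mt2 stood at 1.78, 2.25 and 1.26 above air at 6, 24 and 48 h, Gclc at 1.38, 1.74 and 1.65, and Npr3 at 1.85, 1.90 and 1.49, while Rgs2 stood at -0.91, -1.46 and -1.29. Dst was the gene that had not kept its call at 24 h, with 0.79, 0.40 and 0.13 (limma, adjusted p = 0.066 at 24 h and 0.645 at 48 h), and Errfi1 stood at 1.08, 0.79 and 0.62 (adjusted p = 0.0656 at 48 h). The medians of the lists differed in order as well: glucocorticoid-responsive genes were at 0.72, 0.49 and 0.31, acute phase genes at 0.31, 0.76 and 0.49, B cell markers at -0.39, -0.76 and -0.73, and heat shock proteins and chaperones at 0.02, 1.06 and 1.44.

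**Figure D5:**
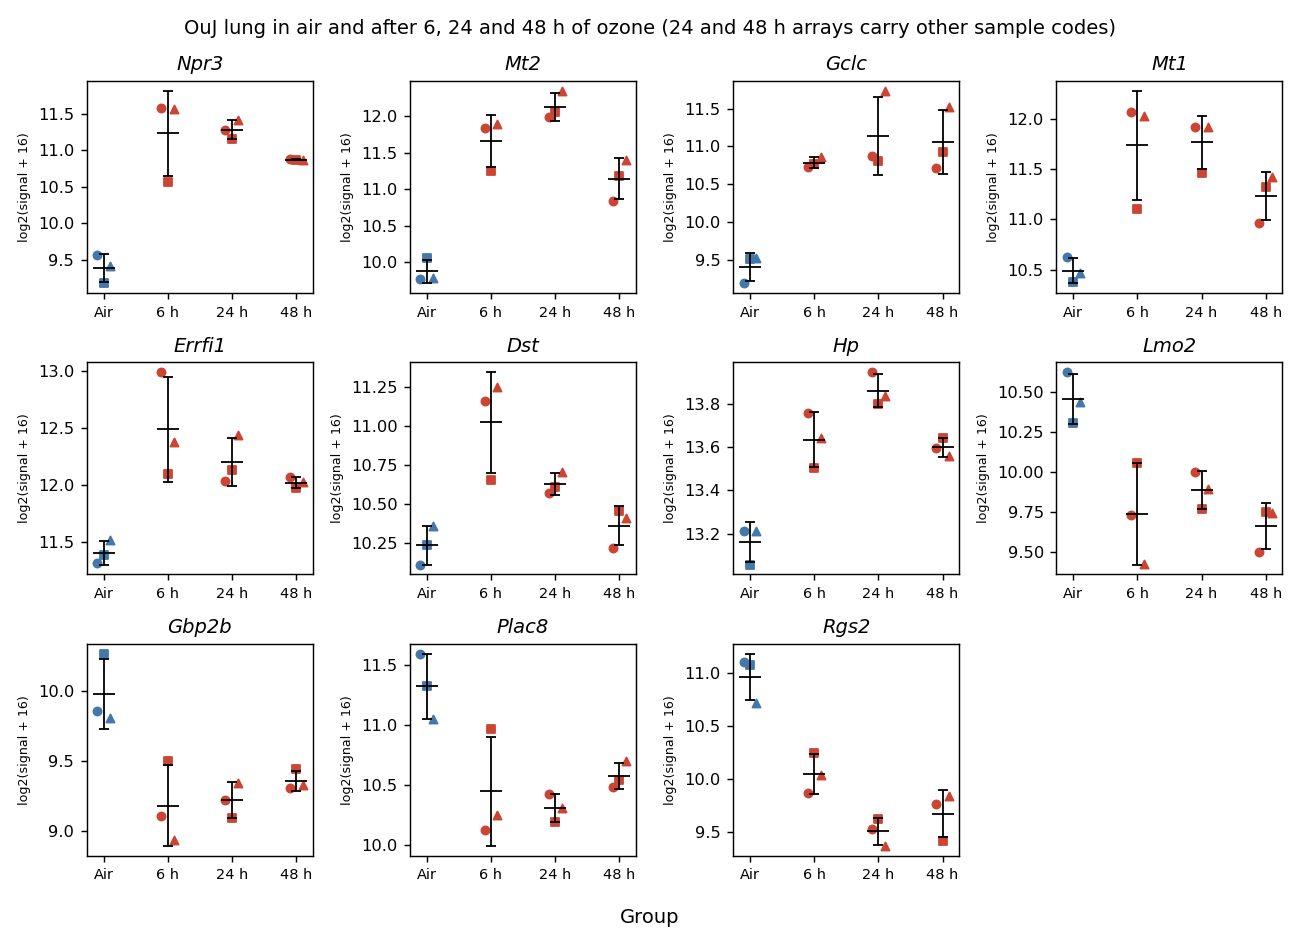
Levels of the 11 genes, as log2(signal + 16) on the vertical axis of each panel, in the OuJ groups in air (blue) and after 6, 24 and 48 h of ozone (red), with the replicate number by marker shape and bars for the mean ± SD of 3 arrays. The vertical axes do not start at 0. Mt2, Gclc, Npr3 and Rgs2 stay away from the air level at every time, whereas Dst is back near it at 48 h (0.13).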

How the data were processed

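The values are intensities (signals) of Affymetrix probe sets on a linear scale, which the authors made with GCOS 1.4, per the submitters' processing notes. Per the labels' protocols, TRIZOL and RNeasy RNA (7.5 µg) was turned into biotin-labelled cRNA. In the deposited intensities the trimmed mean of an array lay between 500.144 and 500.166, so the arrays share a scale. The analysis used log2(intensity + 16). A probe set was kept when its value exceeded 218.3, the median over the series, on 3 or more of the 24 arrays, and the brightest kept probe set stood for each of 8008 genes. Other kept probe sets of a gene could give smaller differences, and they are not given for every gene. Of 22690 probe sets 20380 carry 1 gene symbol, 691 several and 1555 none, besides 64 controls, and 20351 of the symbols matched RefSeq. Group means were estimated with limma 3.58.1 (R 4.3.3, with the package data.table, version 1.17.8) over the 24 arrays, with an intensity trend and 16 residual degrees of freedom. P-values are two-sided, with Benjamini-Hochberg adjustment over the genes tested, and the call was an adjusted p under 0.05. On simulated data for this comparison with 8008 genes, the fit recovered 87% of 100 genes changed by 1 on the log2 scale and 99% of 100 changed by 2, with 7 false calls. The simulation gave each gene independent normal noise and the same change in all exposed arrays. It held no array with weaker changes, such as exposed replicate 2, so its rates may not hold for the real arrays.

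The text names every gene that passed, the 20 next by p without overlap, in each list the members that passed and up to 4 more by p, and a set of receptors, factors and cytokines always given. Genes below the filter were named after their values were seen, except Il6 and Cxcl2. The members and the 36 lists, of 865 genes with 599 tested, were chosen with earlier results of these data known. Per the labels, replicates are separate mice. Same-numbered air and exposed arrays deviated from their group means with correlations of 0.00912, 0.0618 and 0.0903, and differently numbered ones with -0.0813 to 0.0229. The main fit did not pair arrays by number, and whether same-numbered mice shared handling was not tested. Other settings tried were quantile and median scaling, pseudocounts of 1 and 64, other filters, the mean of a gene's probe sets, no trend, smaller fits, the replicate number as a block, array weights and leaving out each array.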

Additional observations from a re-analysis of the deposited data

Results flagged for a closer look

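Npr3, the natriuretic peptide clearance receptor, was flagged because its change at 6 h of ozone differed between the strains in the test of that difference. The change in OuJ minus the change in HeJ was 2.05 on the log2 scale (limma, adjusted p = 0.00764). The strains also stood apart in air, with mean signals of 656.6 ± 89.7 in OuJ and 1412 ± 261 in HeJ (SD, n = 3), and after 6 h the means were 2518 ± 886 and 1264 ± 435. Groups of 3 arrays were not tested for outliers.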

How the results depend on the processing

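Against 11 genes in OuJ, 38 passed with median centring, 7 with no filter, 17 with the mean of probe sets, 5 with only the groups compared, 6 with the 12 air and 6 h arrays and 204 with array weights. Treating the replicate number as a block to pair the arrays gave 35 genes, 24 higher and 11 lower, all 11 among them. The cause of these shifts was not tested. Leaving out 1 array gave 3 to 128 genes: 3 without exposed replicate 1, 128 without exposed replicate 2, 5 without exposed replicate 3, 6 without air replicate 2. The remaining settings gave 8 to 16. For the strain difference, against 1 gene, the count was 0 with the 12 arrays alone (425 genes at an unadjusted p under 0.05, limma) and 0 to 3 when 1 array was left out: 0 without HeJ air replicate 1 (511 at an unadjusted p under 0.05), 2 without HeJ air replicate 3 or HeJ 6 h replicate 1, and 3 without OuJ 6 h replicate 2. Npr3, Mt2 and Gclc passed in all 18 alternatives run for the OuJ comparison, Mt1 and Rgs2 in 16, Dst in 14, Gbp2b in 13, Hp in 12, Errfi1 in 11, Plac8 in 10 and Lmo2 in 8. Leaving out an array moved Hspa1a between -1.02 and 0.31 and Hspa1b between -1.13 and 0.33, without OuJ air replicates 2 and 3, so both changed sign, as did Hspa8 (-0.059) with the mean of probe sets. The median of the glucocorticoid list ranged from 0.54 to 0.83, of the interferon list from -0.35 to -0.19 and of the B cell list from -0.57 to -0.34. Changes of low signals, such as Cxcl1 and Ccl20, are understated by the added 16, and no absence calls were used.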
